A study of Arabidopsis thaliana with 12 samples.

Results

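Leaves of Arabidopsis thaliana lacking both chloroplast ascorbate peroxidases were compared with wild type leaves after 90 min in strong light, over all genes of the count tables. The comparison took 6 of the 12 libraries of the series, 3 labelled sapx tapx and 3 labelled wild type, chosen by the genotype that the labels give. Per the labels, fully expanded rosette leaves came from plants aged 18 days, grown under 40 to 60 µmol photons m-2 s-1. Plants of both genotypes were then moved to 1500 µmol photons m-2 s-1 for 90 min, so the comparison is between 2 genotypes after the same exposure. Leaves that stayed in the growth light were not analysed here, and no response to light is measured. The labels give neither the alleles nor the number of plants behind a library. The other 6 libraries, pgr5 and sapx tapx pgr5 after the same growth and exposure, served to read the named genes a second time. Their levels are not among those compared between sapx tapx and wild type. The fit covered all 12 libraries, however, so they also entered the filter, the scaling and the spread behind the p-values. The second reading is therefore not independent of those p-values. Of the 28642 genes in each table, 16350 passed the filter on low counts and were tested.

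In strong light, chloroplasts pass part of their electrons to oxygen, and the superoxide that forms is converted to hydrogen peroxide. SAPX in the stroma and TAPX on the thylakoid membrane reduce this peroxide to water with ascorbate, which other enzymes then regenerate. Peroxiredoxins, glutathione peroxidases and catalase of the peroxisome act beside them, and hydrogen peroxide also serves as a signal that alters the expression of nuclear genes.

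The transcripts of both mutated genes were low in every sapx tapx library. SAPX (AT4G08390, chromosome 4, 5314905 to 5317456 on TAIR10, plus strand) stood at 205, 238 and 198 CPM in wild type replicates 1, 2 and 3 and at 17.3, 25.9 and 18.4 CPM in sapx tapx replicates 1, 2 and 3. CPM are exon reads of a gene per 1e6 exon reads of the library after TMM scaling, and values are given in this order of libraries throughout. TAPX (AT1G77490, chromosome 1, 29117542 to 29120215, plus strand) stood at 182, 155 and 173 CPM in wild type and at 17.6, 19.2 and 18.4 CPM in sapx tapx. PGR5, which both genotypes carry, stood at 244, 241 and 244 CPM against 270.3, 327 and 238 CPM, with overlapping groups. The 6 labels therefore matched the levels of their mutated genes.

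The 6 libraries held 4916603 to 6625261 exon reads, and a floor of 3 reads corresponded to 0.453 to 0.610 CPM. One library of each genotype stood apart from its group. Of 6771 genes with at least 20 CPM on average, 257 were over 2-fold above both other wild type libraries in wild type replicate 2, and 126 were over 2-fold below both other sapx tapx libraries in sapx tapx replicate 2. The same count was at most 19 upward and 9 downward in the remaining 4 libraries. Where leaving out one of these libraries ended a call, this is stated. Values without the library are given for some of the genes and lists that moved far.

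Very few genes separated the genotypes beyond the spread of their replicates. At an adjusted p under 0.05 in edgeR's quasi-likelihood test, 6 of 16350 genes (0.0367%) were called, 3 higher in sapx tapx (0.0183%) and 3 lower (0.0183%). Besides SAPX and TAPX, MRD1 fell, and QQS, AT3G11720 and CML23 rose. The median log2 fold change of all genes tested, sapx tapx minus wild type, was 0.005, and 50.9% of genes lay above 0. At an unadjusted p under 0.05 there were 1227 genes (7.5%), 735 higher (4.5%) and 492 lower (3.01%). In 1875 genes (11.5%) the 3 libraries of one genotype lay entirely above or below the 3 of the other. DESeq2 on the same counts called 56 genes (0.343%), 49 higher (0.3%) and 7 lower (0.0428%), including all 6 of edgeR's. limma on the deposited RPKM values called 4, which left out AT3G11720 and CML23.

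**Figure D1:**
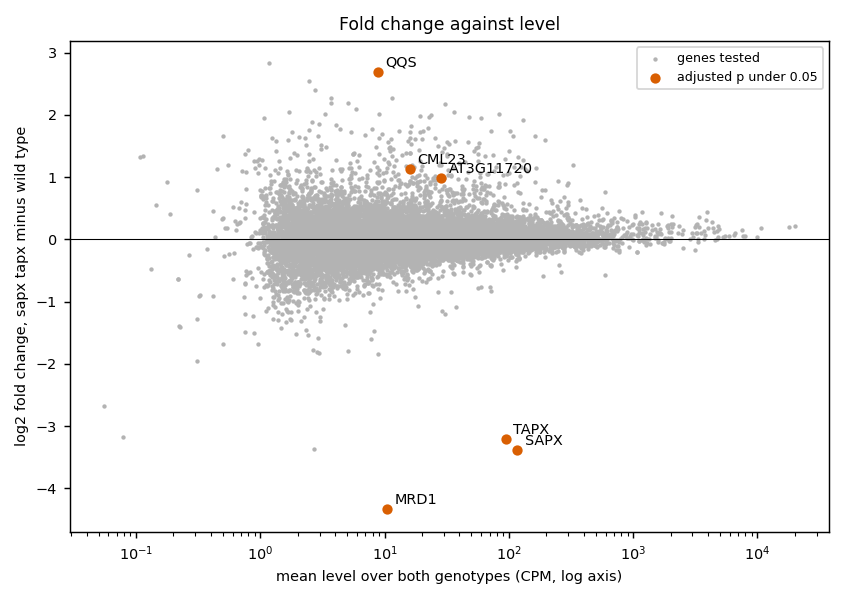
Log2 fold change of sapx tapx minus wild type (vertical axis) against the mean level over both genotypes in CPM (horizontal log axis) for the 16350 genes tested, with the 6 called genes in orange. MRD1, SAPX and TAPX lie below -3, QQS lies above 2.5, and most other genes lie between -1 and 1.

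For most genes the fit also set a bound on how large a difference could be. Its intervals use a spread estimated over all 12 libraries and are not adjusted for the number of genes. Over genes of at least 20 CPM, the standard deviation of a library from the mean of its group's others was 0.21 to 0.22 log2 units in pgr5. It was 0.33 to 0.57 in wild type and 0.25 to 0.39 in sapx tapx. Intervals from the 6 libraries alone are not given here. The 95% interval of the fold change lay within 2-fold in either direction for 13527 genes (82.7%). That share was 46.7% of the 3422 genes under 5 CPM, where the median standard error of the log2 fold change was 0.34. It was 90.1% of the 6157 genes at 5 to 20 CPM, 93.7% of the 5212 genes at 20 to 100 CPM and 96.2% of the 1559 genes above that.

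MRD1 (AT1G53480, chromosome 1, 19963047 to 19964712, minus strand), named for its low transcript in the methionine-accumulating mutant mto1, had the largest fold change of the called genes. Its level was 17.3, 19.2 and 23.3 CPM in wild type and 1.43, 1.27 and 0.304 CPM in sapx tapx. All 3 sapx tapx libraries were far below every wild type library. The log2 fold change was -4.34 ± 0.36 (SE, n = 3 and 3; edgeR quasi-likelihood adjusted p = 0.000304), and the gene was called in all 23 alternative fits. In these libraries 18.7% of its exon reads were unique. The gene overlaps HEI10 on the other strand, and as the library kit does not mark strand, reads from the overlap cannot be told apart. HEI10 summed to 80 reads in wild type and 22 in sapx tapx, against 363 and 17 for MRD1. Unique reads alone numbered 18, 23 and 27 in wild type and 1 in each sapx tapx library, with a log2 fold change of -4.31 ± 0.38 (edgeR quasi-likelihood adjusted p = 0.000486).

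QQS (AT3G30720, chromosome 3, 12349047 to 12349832, plus strand) encodes a small protein specific to Arabidopsis thaliana that affects how leaf carbon and nitrogen are divided between starch and protein. It stood at 3.50, 1.38 and 2.205 CPM in wild type and at 12.5, 15.4 and 18.1 CPM in sapx tapx. Every sapx tapx library was above every wild type library, and the ratio of the means was 6.49. The log2 fold change was 2.68 ± 0.27 (SE, n = 3 and 3; edgeR quasi-likelihood adjusted p = 0.00151). QQS was called in 22 of 23 alternative fits and lost its call in the fit of the 6 libraries alone (edgeR quasi-likelihood adjusted p = 0.102).

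AT3G11720 (chromosome 3, 3705865 to 3708721, minus strand), annotated as a member of the polyketide cyclase and lipid transport superfamily, was near 2-fold higher. Its level was 18.0, 19.4 and 20.5 CPM in wild type and 35.3, 43.9 and 35.1 CPM in sapx tapx. The groups did not overlap, and the log2 fold change was 0.98 ± 0.13 (SE, n = 3 and 3; edgeR quasi-likelihood adjusted p = 0.034). The call was lost in 12 of 23 alternatives, among them 8 of the 12 fits that left out 1 library (wild type replicate 1 or 3, any of the 3 sapx tapx libraries, pgr5 replicate 1 or 3, or sapx tapx pgr5 replicate 1). The fold change itself stayed between 0.86 and 1.02.

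CML23 (AT1G66400, chromosome 1, 24770575 to 24771371, minus strand) encodes a calmodulin-like calcium-binding protein. It stood at 7.84, 10.6 and 11.5 CPM in wild type and at 20.6, 25.5 and 19.6 CPM in sapx tapx. The lowest sapx tapx library was above the highest wild type library. The log2 fold change was 1.13 ± 0.16 (SE, n = 3 and 3; edgeR quasi-likelihood adjusted p = 0.034). The call was lost in 15 of 23 alternatives with fold changes of 0.97 to 1.24, and in 10 of the 12 fits that left out 1 library, all except those without wild type replicate 2 or sapx tapx pgr5 replicate 2. Without wild type replicate 2, which stood apart, the edgeR quasi-likelihood adjusted p was 0.0285 for CML23, 0.0312 for AT3G11720, 0.00333 for QQS and 0.000651 for MRD1.

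**Figure D2:**
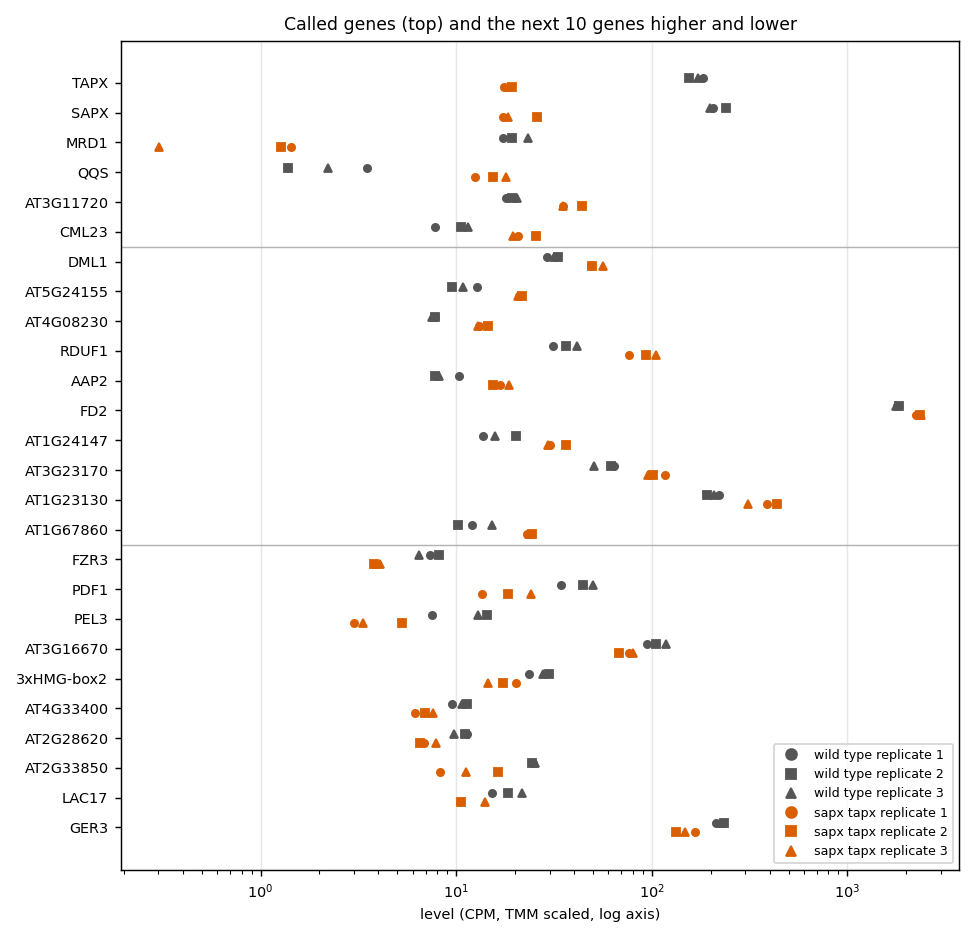
Level of the 6 called genes (top) and of the 10 genes next in order of p that were higher (middle) and lower (bottom) in sapx tapx, in CPM on a log axis, 1 symbol per library with grey for wild type and orange for sapx tapx. The groups do not overlap in any of the 26 genes; MRD1 lies between 0.304 and 1.43 CPM in sapx tapx, and FD2 lies between 1777 and 2385 CPM.

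Next in order of p, 10 genes with a higher level in sapx tapx missed the threshold, with edgeR quasi-likelihood adjusted p from 0.054 to 0.0887. DESeq2 called 9 of these 10. Since they were taken for their small p, their fold changes are values only. In all 10 the groups did not overlap, which the choice by small p largely fixed. The share of 5.8% over all genes tested in that direction is therefore no measure for them. DML1, also known as ROS1, a DNA glycosylase that removes methylated cytosine, stood at 29.0, 33.2 and 31.5 CPM in wild type and at 49.1, 49.4 and 56.3 CPM in sapx tapx. RDUF1, a RING-type ubiquitin ligase, stood at 31.3, 36.5 and 41.3 CPM against 76.2, 93.6 and 106 CPM. FD2, the main ferredoxin of leaves and the electron acceptor of photosystem I, was measured with the most reads, at 1799.7, 1839 and 1777 CPM against 2251, 2354 and 2385 CPM. Its spread within a genotype, pooled over both genotypes, was the smallest of the 10, and its log2 fold change of 0.37 ± 0.06 was the smallest of the 10.

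AAP2, an amino acid permease of the vasculature, stood at 10.3, 7.79 and 8.19 CPM in wild type and at 16.8, 15.4 and 18.5 CPM in sapx tapx. AT1G23130, a second member of the family of AT3G11720, stood at 221, 192 and 207 CPM against 389, 435 and 312 CPM. AT4G08230, annotated as a glycine-rich protein, stood at 7.84, 7.79 and 7.56 CPM against 13.2, 14.6 and 12.9 CPM. It lies 125 kb from SAPX on chromosome 4. The remaining 4 were AT5G24155, annotated as an oxidoreductase, and AT1G24147, AT3G23170 and AT1G67860, which are uncharacterized, with log2 fold changes of 0.83 to 0.95.

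The 10 genes next in order of p with a lower level in sapx tapx had edgeR quasi-likelihood adjusted p from 0.116 to 0.296, and DESeq2 called 3 of them, PDF1, PEL3 and AT3G16670. Their groups did not overlap either (5.67% of all genes tested in that direction), which the choice by small p again largely fixed. PDF1, a proline-rich protein of the epidermal layer, stood at 34.5, 44.5 and 50.2 CPM in wild type and at 13.6, 18.3 and 24.0 CPM in sapx tapx. PEL3, an acyltransferase needed to form the cuticle, stood at 7.502, 14.4 and 12.9 CPM against 3.01, 5.27 and 3.34 CPM. These 2 genes of the epidermis had the largest differences of the 10 in log2 terms, -1.20 ± 0.22 and -1.60 ± 0.32.

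GER3, a germin-like protein of the extracellular matrix, stood at 214, 233 and 229 CPM in wild type and at 167, 134 and 148 CPM in sapx tapx. FZR3, an activator of the ubiquitin ligase that drives the end of mitosis, stood at 7.34, 8.13 and 6.46 CPM against 3.804, 3.796 and 4.101 CPM. Its gene overlaps AT5G13850 on the other strand, which summed to 1101 reads in wild type and 1042 in sapx tapx. 3xHMG-box2, a protein of mitotic chromosomes whose gene overlaps a gene on the other strand, stood at 23.7, 29.9 and 27.7 CPM against 20.3, 17.3 and 14.6 CPM. The lowest wild type library of 3xHMG-box2 was close to the highest sapx tapx library. AT2G33850, annotated as E6-like, stood at 24.8, 24.4 and 25.4 CPM against 8.24, 16.5 and 11.2 CPM, and it had a single read among the 6 libraries that carry pgr5. The other 4 were AT3G16670, AT4G33400, AT2G28620 and LAC17, a laccase of lignin formation of whose exon reads 42.1% were unique. On unique reads the log2 fold change of LAC17 was -0.41 ± 0.25, against -0.65 ± 0.16 on all exon reads.

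The same 2 peroxidases are missing in sapx tapx pgr5 compared with pgr5, in 6 further libraries that were part of the same fit. In that comparison 252 genes were called (1.54%), 220 higher (1.35%) and 32 lower (0.196%). AT3G11720 stood at 14.8, 18.2 and 14.8 CPM in pgr5 and at 31.7, 33.9 and 26.9 CPM in sapx tapx pgr5. Its log2 fold change of 0.95 ± 0.14 (edgeR quasi-likelihood adjusted p = 0.00356) was close to the 0.98 ± 0.13 without pgr5. QQS was low in both genotypes that carry pgr5, at 1.02, 0.897 and 1.44 CPM against 2.82, 3.39 and 2.86 CPM. Its log2 fold change of 1.42 ± 0.35 did not pass (edgeR quasi-likelihood adjusted p = 0.0724), and the difference from the effect without pgr5, -1.26 ± 0.47, did not pass either (edgeR quasi-likelihood adjusted p = 0.563).

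A further group of 3 named genes differed between the 2 backgrounds when the difference of the effects was itself tested, a test that called 23 of all genes (0.141%). MRD1 stood at 16.7, 18.5 and 17.6 CPM in pgr5 and at 6.52, 11.9 and 12.9 CPM in sapx tapx pgr5. The fold change there was -0.75 ± 0.26 on the log2 scale, and the difference from the effect without pgr5 was 3.59 ± 0.46 (edgeR quasi-likelihood adjusted p = 0.00993). CML23 was lower rather than higher in sapx tapx pgr5, at 17.5, 14.7 and 16.2 CPM in pgr5 and at 11.1, 9.85 and 10.1 CPM in sapx tapx pgr5. The groups did not overlap in either background, and the effects differed by -1.77 ± 0.22 (edgeR quasi-likelihood adjusted p = 0.00993). RDUF1 stood at 73.1, 53.8 and 67.9 CPM in pgr5 and at 24.5, 45.7 and 39.3 CPM in sapx tapx pgr5, and its effects differed by -2.16 ± 0.30 (edgeR quasi-likelihood adjusted p = 0.0138). For none of MRD1, CML23 and RDUF1 did the effect in the pgr5 background itself pass edgeR's test (edgeR quasi-likelihood adjusted p = 0.22, 0.0765 and 0.0854). DESeq2 did call RDUF1 in that background.

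Of the 10 genes next in order that were higher in sapx tapx, edgeR called 4 higher in sapx tapx pgr5 compared with pgr5, namely AT4G08230, AAP2, AT1G24147 and AT1G67860. Of all genes tested, 1.35% were called higher there. DESeq2 called 6 of the 10 there, namely AAP2, FD2, AT1G24147, AT1G23130, AT1G67860 and RDUF1, the last of which was lower. It called 337 of all 16350 genes in that comparison. AT1G24147 stood at 11.6, 10.2 and 11.9 CPM in pgr5 and at 53.4, 45.6 and 42.7 CPM in sapx tapx pgr5. AT4G08230 stood at 7.99, 8.97 and 10.1 CPM in pgr5 and at 15.5, 13.5 and 14.9 CPM in sapx tapx pgr5. AAP2 stood at 13.3, 15.1 and 14.4 CPM in pgr5 and at 25.7, 22.3 and 29.6 CPM in sapx tapx pgr5. In these 3 genes and in AT1G67860 the libraries of the 2 genotypes did not overlap, which a call in the same libraries largely fixes. DML1 stood at 53.4 to 55.6 CPM in pgr5 and at 48.5 to 60.3 CPM in sapx tapx pgr5, groups that overlapped. Of the 10 genes next in order that were lower in sapx tapx, edgeR called 0 in these libraries in either direction, with 2, LAC17 and GER3, at an unadjusted p under 0.05, and DESeq2 called 1, GER3.

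**Figure D3:**
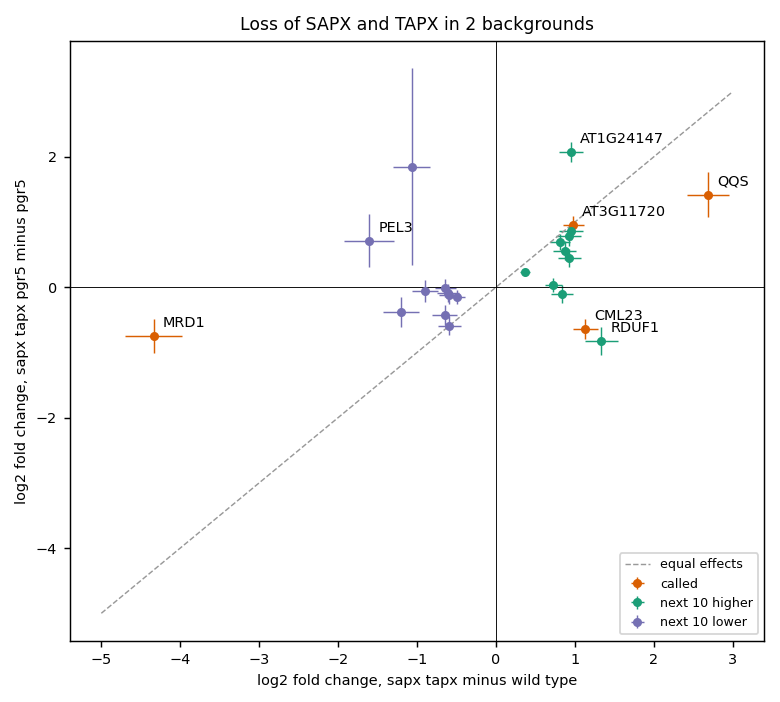
Log2 fold change of sapx tapx minus wild type (horizontal axis) against that of sapx tapx pgr5 minus pgr5 (vertical axis) for the called genes other than SAPX and TAPX and for the 10 genes next in order in each direction, with standard errors as bars and a dashed line of equal effects. AT3G11720 lies on the line, MRD1 lies far above it, and CML23 and RDUF1 are above 0 on one axis and below 0 on the other; the point with the longest vertical bar is AT2G33850, which had a single read in those 6 libraries.

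Genes of the remaining peroxide-removing enzymes did not pass the test, and their intervals in the fit of 12 libraries were narrow. The 5 antioxidant lists held the other ascorbate peroxidases, the reductases that recycle ascorbate and glutathione, catalases with superoxide dismutases and glutathione peroxidases, chloroplast peroxiredoxins and thioredoxins, and the synthesis of ascorbate and glutathione. Of their 57 members, 54 passed the filter and 0 were called by edgeR, with 5 higher and 1 lower at an unadjusted p under 0.05, and DESeq2 called 1, CDSP32, a chloroplast thioredoxin-like protein. All 54 intervals of the fold change lay within 2-fold, from a lowest bound of -0.88 (APR3) to a highest bound of 0.90 (APR1) on the log2 scale. The median log2 fold change was 0.05, with 37 of 54 above 0, against 0.005 and 50.9% over all genes tested. Of all genes tested, 4.5% were higher and 3.01% lower at an unadjusted p under 0.05, and DESeq2 called 0.343%.

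APX1, the main cytosolic ascorbate peroxidase, stood at 1470.1, 2320.0 and 2015 CPM in wild type and at 1631, 2357 and 2338 CPM in sapx tapx. APX4, a thylakoid lumen protein related to the peroxidases, stood at 585, 599 and 613 CPM against 559, 588 and 537 CPM. Both genes had overlapping groups, and APX2, a cytosolic ascorbate peroxidase known for induction by strong light, had 7 reads in wild type and 3 in sapx tapx. Among the recycling enzymes, MDAR1, a monodehydroascorbate reductase, stood at 343, 329 and 336 CPM against 375, 409 and 376 CPM without overlap, a log2 fold change of 0.20 ± 0.06 (edgeR quasi-likelihood adjusted p = 0.449). FSD1, an iron superoxide dismutase, stood at 881, 1006 and 800.4 CPM against 1059.5, 1258 and 1186 CPM, also without overlap (log2 fold change 0.38 ± 0.09, edgeR quasi-likelihood adjusted p = 0.296). The peroxisomal catalase CAT2 stood at 2886, 2710.3 and 3389.7 CPM against 2693, 3052 and 3471 CPM, with overlap.

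The chloroplast peroxiredoxin 2CPA, which removes hydrogen peroxide with electrons from thioredoxin, stood at 1338, 1324 and 1258 CPM in wild type and at 1286, 1178 and 1203 CPM in sapx tapx. PRXQ, a second chloroplast peroxiredoxin, stood at 673, 659.97 and 638 CPM against 723, 687 and 652 CPM. Both had overlapping groups and log2 fold changes of -0.10 ± 0.06 and 0.07 ± 0.06. VTC2, the enzyme that commits carbon to ascorbate, stood at 1700.0, 705 and 1634 CPM against 1421, 1342 and 1274 CPM. In wild type replicate 2 it was below every other library of the 6.

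Photosynthesis genes gave the same picture of narrow intervals. The 5 lists of photoprotection and repair, cyclic electron flow, light-harvesting proteins, photosystem and electron carrier proteins, and Rubisco held 86 genes, all of which passed the filter, and edgeR called 0. At an unadjusted p under 0.05, 19 were higher and 1 lower, beside 4.5% and 3.01% of all genes tested, and DESeq2 called 2, PSAK and FD2. All 86 intervals lay within 2-fold, from -0.88 (ELIP1) to 0.87 (PSAN) on the log2 scale. The fold changes leaned upward, with 76 of 86 above 0 and a median of 0.13, against 50.9% and 0.005 over all genes tested. This lean depended on single libraries. Without sapx tapx replicate 2 the median went from 0.10 to -0.007 for light-harvesting proteins and from 0.12 to 0.05 for cyclic electron flow. Without wild type replicate 2 it went from 0.11 to 0.05 for photoprotection and repair and from 0.18 to 0.09 for Rubisco. The groups did not overlap in 17 genes that were higher in sapx tapx and in 1 that was lower, where 5.8% and 5.67% of all genes tested did so.

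The lean was largest among the photosystem and electron carrier proteins, where 26 of 27 genes lay above 0 with a median of 0.20. PETE2, the major plastocyanin, which carries electrons to photosystem I, stood at 4045, 3794 and 3912 CPM in wild type and at 4763, 4963 and 4442 CPM in sapx tapx. PSAO, a photosystem I subunit, stood at 3026, 2729.9 and 2942 CPM against 3339, 3498 and 3149 CPM. Both genes had every sapx tapx library above every wild type library, and neither was called (edgeR quasi-likelihood adjusted p = 0.274 and 0.537). PSBR, a photosystem II subunit, stood at 3788, 3158 and 3132 CPM against 4652, 5466 and 3520.1 CPM and overlapped. These transcripts are short, with a median exon length of 858 bases against 1615 over all genes tested, and across genes the log2 fold change fell with exon length (Spearman rho = -0.23, a description over 16350 genes of the same libraries). The median of the list was 0.12 with a trend on exon length removed and 0.09 without sapx tapx replicate 2.

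RBCS1A, a small subunit of Rubisco and the gene with the highest level in these leaves, stood at 20774, 16098 and 18639 CPM in wild type and at 22926, 20167 and 21315 CPM in sapx tapx. LHCB1.3, an antenna protein of photosystem II, stood at 17607, 16111 and 16456 CPM against 16538, 23226 and 18048 CPM. Both overlapped, and the highest LHCB1.3 level was in sapx tapx replicate 2. Members of these families have near-identical copies, so reads may be split among them. PSBS, needed for the rapid quenching of excess light, stood at 3691, 3511 and 3929.9 CPM against 3713, 3603 and 3881 CPM. FTSH5, a protease that removes damaged photosystem II protein, stood at 2969, 2612 and 3043 CPM against 3159, 3011 and 3129 CPM. Their log2 fold changes were 0.01 ± 0.07 and 0.11 ± 0.07. In the cyclic electron flow list, PGRL1A, the partner protein of PGR5, stood at 652, 631 and 696 CPM against 646, 775 and 694 CPM.

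Rapidly induced stress genes were the group in which the genotypes were resolved least, by the share of intervals within 2-fold. The lists of rapid stress and touch, singlet oxygen and jasmonate genes held 46 genes, of which 42 passed the filter. CML23 was the 1 that edgeR called, 7 were higher and 0 lower at an unadjusted p under 0.05, and DESeq2 called 3, CML23, ERF4 and ZAT6. Of all genes tested, 4.5% were higher and 3.01% lower at that p, DESeq2 called 0.343%, and 50.9% lay above 0. Over the 42 genes the median log2 fold change was 0.71, with 35 of 42 above 0. The interval lay within 2-fold for only 2 of the 42, and the bounds ran from -3.70 (CYP94B3) to 4.57 (WRKY40). In 38 of the 42 genes wild type replicate 2 was the highest wild type library, and in 39 of the 42 sapx tapx replicate 2 was the lowest sapx tapx library.

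For the rapid stress and touch list the mean log2 CPM was 2.67, 5.23 and 2.66 in wild type and 5.57, 4.14 and 5.17 in sapx tapx. The singlet oxygen list had means of 1.70, 3.996 and 1.35 against 5.005, 3.27 and 4.34, and the jasmonate list means of 4.03, 6.96 and 3.91 against 6.52, 4.63 and 6.06. In each list wild type replicate 2 was higher than 1 or more of the sapx tapx libraries, while wild type replicates 1 and 3 were below all of them. The median over the rapid stress list was 1.13 with all libraries and 2.57 without wild type replicate 2, that of the singlet oxygen list 1.54 and 3.35, and that of the jasmonate list 0.13 and 1.95. Whether the difference between libraries of 1 genotype arose in the plants, at harvest or later was not tested.

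**Figure D4:**
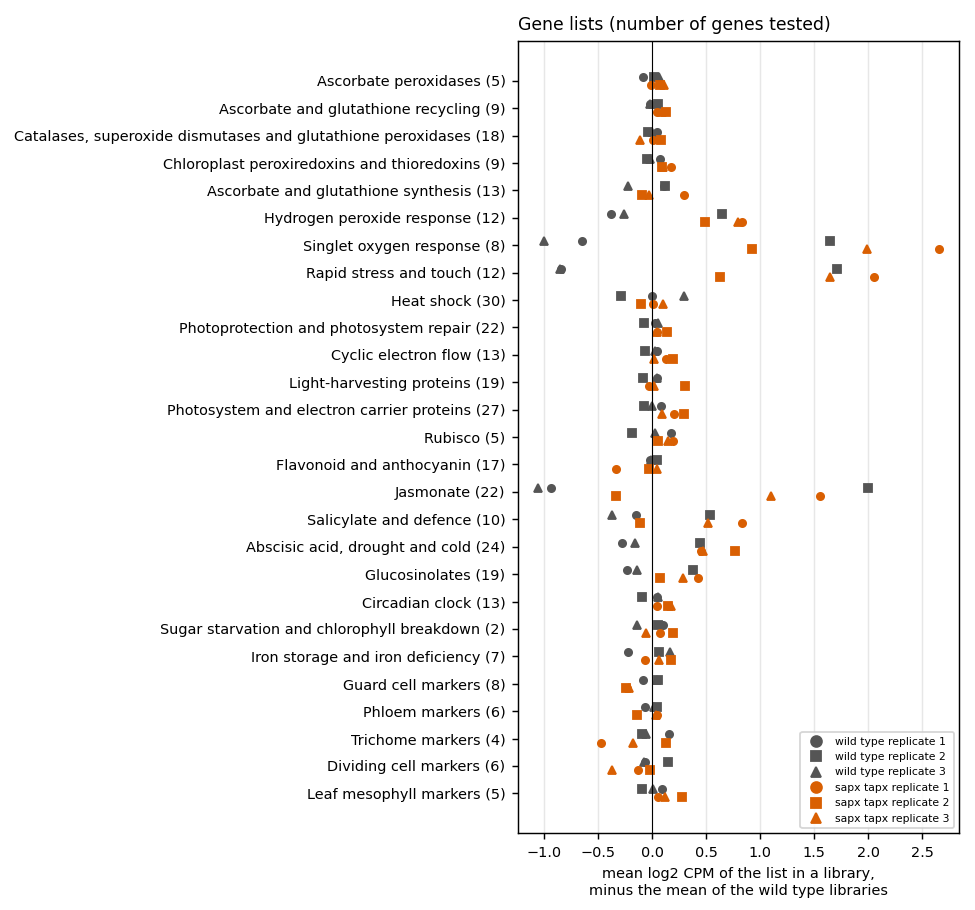
Mean log2 CPM of each gene list in each library minus the mean of the 3 wild type libraries (horizontal axis), 1 row per list with its number of genes tested, grey for wild type and orange for sapx tapx. In the singlet oxygen, rapid stress and jasmonate lists wild type replicate 2 (grey square) lies far above the other wild type libraries, among the sapx tapx libraries in the first pair and above all of them in the jasmonate list, while the antioxidant and photosynthesis lists lie close to 0 in all 6 libraries.

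WRKY40, a transcription factor that responds to singlet oxygen and pathogens, stood at 0.667, 58.2 and 0.315 CPM in wild type and at 121, 18.1 and 87.3 CPM in sapx tapx. TCH2, a calmodulin-like protein induced by touch, stood at 58.5, 178 and 72.8 CPM against 272, 183 and 227 CPM. Its groups did not overlap, but the highest wild type library came within 5 CPM of the lowest sapx tapx library. ERF4, a repressor of ethylene responses, stood at 17.8, 51.4 and 20.2 CPM against 112, 57.8 and 79.3 CPM, again without overlap. Neither was called by edgeR (edgeR quasi-likelihood adjusted p = 0.493 for TCH2 and 0.342 for ERF4), while DESeq2 called ERF4.

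The 8 genes with the largest spread within a genotype, among those of at least 20 CPM, were JAZ7, PHI-1, RRTF1, WRKY40, PUP18, CYP707A3, BT5 and ERF2. JAZ7, a repressor of jasmonate signalling, stood at 0, 62.1 and 0.315 CPM in wild type and at 39.3, 0.211 and 21.6 CPM in sapx tapx. PHI-1, a phosphate-responsive gene, stood at 1.00, 123 and 0.630 CPM against 121, 3.16 and 74.1 CPM. RRTF1, a redox-responsive transcription factor, stood at 0.333, 109 and 0.787 CPM against 99.2, 13.5 and 87.0 CPM. In all 8 genes wild type replicate 2 and sapx tapx replicates 1 and 3 were the 3 highest libraries. Below them, sapx tapx replicate 2 still lay above wild type replicates 1 and 3 in every gene except JAZ7, as in RRTF1 at 13.5 against 0.333 and 0.787 CPM. CYP707A3, which inactivates abscisic acid, and ERF2, an ethylene response factor, had log2 fold changes of 1.38 ± 1.22 and 1.499 ± 1.17, both with groups that overlapped. Without wild type replicate 2 the log2 fold change went from 0.01 to 6.83 for JAZ7, from 0.69 to 6.32 for PHI-1 and from 0.87 to 6.83 for RRTF1. It went from 1.38 to 5.54 for CYP707A3 and from 1.499 to 4.91 for ERF2, and none of these 5 values passed edgeR's test.

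**Figure D5:**
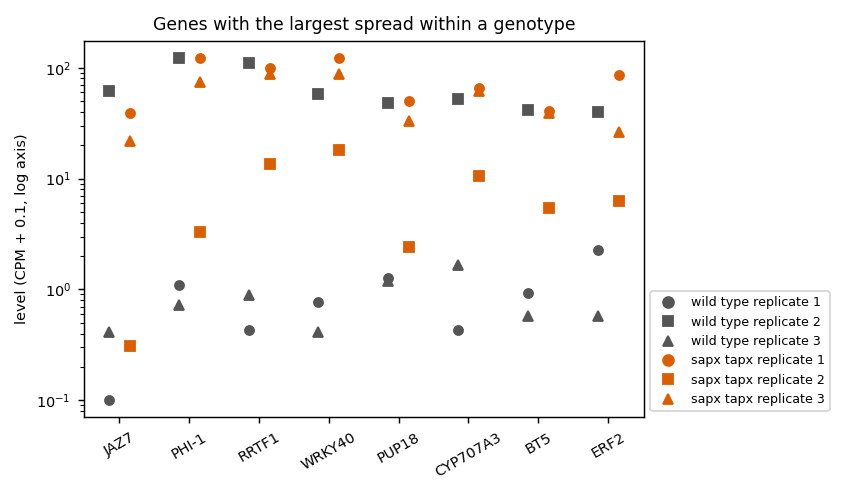
Level of the 8 genes with the largest spread within a genotype, in CPM plus 0.1 on a log axis, 1 symbol per library with grey for wild type and orange for sapx tapx. Wild type replicate 2 (grey square) lies with sapx tapx replicates 1 and 3, and wild type replicates 1 and 3 lie lowest in 7 of the genes, with sapx tapx replicate 2 beside them in JAZ7.

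Of the libraries left out singly, only wild type replicate 2 moved the number of calls far. With wild type replicate 2 left out, edgeR called 81 genes, against 4 to 8 when any other library was left out. Of these 81, 80 were among the genes tested with all libraries, with 77 higher and 3 lower in sapx tapx, and 24 of them were also called by DESeq2 on all libraries. They included WRKY40 (log2 fold change 7.22 ± 1.35, edgeR quasi-likelihood adjusted p = 0.0449), TCH2 (1.78 ± 0.28, edgeR quasi-likelihood adjusted p = 0.0246) and ERF4 (2.12 ± 0.31, edgeR quasi-likelihood adjusted p = 0.0194). Further ones were ZAT12, a zinc finger factor of reactive oxygen responses (2.99 ± 0.38, edgeR quasi-likelihood adjusted p = 0.0106), and MYC2, the central transcription factor of jasmonate responses (1.95 ± 0.24, edgeR quasi-likelihood adjusted p = 0.00994). CBF1 and CBF2, regulators of cold-induced genes, were also called. In sapx tapx pgr5 compared with pgr5, where 1.54% of all genes were called, 4 of the 80 were, namely SAPX, TAPX, AT3G11720 and AT1G24147. WRKY40, TCH2, ERF4, ZAT12, MYC2, CBF1 and CBF2 were not among them. No library was left out on that side, although sapx tapx pgr5 replicate 2 also stood apart. In it 154 of the 6771 genes were over 2-fold below both other libraries of its group. The rapid stress and touch list had means of 5.71, 3.59 and 5.42 log2 CPM in sapx tapx pgr5 and 4.47, 4.97 and 4.03 in pgr5. Wild type replicate 2 was left out because of its levels, so the 81 calls describe the remaining 5 libraries and do not replace those with all 6.

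Genes of the hydrogen peroxide response lay between these groups. Of 16 members 12 passed the filter, 0 were called by edgeR or DESeq2 and 3 were higher at an unadjusted p under 0.05, beside 4.5% of all genes tested. The median log2 fold change was 0.47. The interval lay within 2-fold for 3 of the 12, against 82.7% of all genes tested. Some members were near the floor, as GSTU24, UGT74E2 and CYP81D11, with 1, 2 and 6 reads in wild type and 3, 4 and 2 in sapx tapx. They passed only because the filter also covered the libraries that carry pgr5, and they enter the median and this share. AOX1A, the alternative oxidase of mitochondria, stood at 62.4, 65.1 and 71.2 CPM in wild type and at 82.6, 91.1 and 72.4 CPM in sapx tapx. Its groups did not overlap, although the highest wild type and lowest sapx tapx libraries nearly met (log2 fold change 0.31 ± 0.10, edgeR quasi-likelihood adjusted p = 0.534). ZAT10, a zinc finger repressor, stood at 21.2, 74.8 and 31.2 CPM against 120.3, 65.8 and 137 CPM and overlapped through wild type replicate 2. The median of the list was 0.97 without that library.

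Heat shock genes showed no call by edgeR or DESeq2 and no member at an unadjusted p under 0.05 among the 30 of 33 that passed. The median log2 fold change was -0.10, with -0.30 and 0.12 without wild type replicates 2 and 3. The interval lay within 2-fold for 19 of the 30, against 82.7% of all genes tested. Here too some members were near the floor, as HSP17.6A, AT1G53540 and HSP23.6-MITO, with 3, 2 and 5 reads in wild type and 0, 0 and 3 in sapx tapx. They passed only because the filter also covered the libraries that carry pgr5. HSP70-1, an abundant cytosolic chaperone, stood at 1759, 1426 and 2173 CPM in wild type and at 1502, 1761 and 1948 CPM in sapx tapx, with overlap. In 3 members, HSP21, HSP22 and HSFA7B, no read was counted in the 6 libraries. A count of 0 allows up to 0.610 CPM in the library with the fewest reads, for counting error only.

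Abscisic acid, drought and cold genes had a median of 0.36, with 21 of 24 above 0, 3 higher at an unadjusted p under 0.05 and 0 called by edgeR or DESeq2. Of all genes tested, 50.9% lay above 0, and 4.5% were higher and 3.01% lower at that p. The interval lay within 2-fold for 10 of these 24, against 82.7% of all genes tested. Leaving out wild type replicate 2 gave a median of 0.55, and leaving out sapx tapx replicate 2 gave 0.14. COR15A, a chloroplast protein of cold tolerance, stood at 1003, 1181 and 797 CPM in wild type and at 1356, 1632 and 1034 CPM in sapx tapx, with overlap. In the glucosinolate list, 0 of 19 were called by edgeR or DESeq2, with 1 higher and 2 lower at an unadjusted p under 0.05. The 2 myrosinases that break glucosinolates down ran against the list's median of 0.20, which was 0.08 without wild type replicate 3 and 0.31 without wild type replicate 2. TGG1 stood at 3418, 3149.8 and 3406 CPM in wild type and at 3049, 2837 and 2962 CPM in sapx tapx. TGG2 stood at 1214, 1056 and 1213 CPM against 1050.2, 962 and 998 CPM. Both were lower in every sapx tapx library, with log2 fold changes of -0.17 ± 0.06 and -0.21 ± 0.07 (edgeR quasi-likelihood adjusted p = 0.537 and 0.51).

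The salicylate and defence list had a median of 0.19 over 10 of 14 genes, with 0 called by edgeR or DESeq2 and 0 at an unadjusted p under 0.05. That median was -0.03 without wild type replicate 3 and 0.33 without wild type replicate 2. The interval lay within 2-fold for 6 of the 10 genes. Flavonoid and anthocyanin genes had a median of -0.11 over 17 of 21 genes, circadian clock genes one of -0.002 over 13 of 13, and iron genes one of 0.03 over 7 of 11. In these 3 lists edgeR and DESeq2 called 0, and a single flavonoid gene was lower at an unadjusted p under 0.05. FER1, a chloroplast ferritin that stores iron, stood at 232, 725 and 407 CPM in wild type and at 308, 854 and 618 CPM in sapx tapx. Replicate 2 was the highest library of both genotypes for this gene, and the groups overlapped. Of the 6 sugar starvation and chlorophyll breakdown genes 2 passed, and neither was called by edgeR or DESeq2 or reached an unadjusted p under 0.05.

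Markers of leaf cell types fitted the labelled tissue. The mesophyll markers summed to 52019 to 60871 CPM in wild type and 60845 to 68212 CPM in sapx tapx, and the 4 root markers to 0.333 to 0.692 and 0 to 0.759 CPM, where 1 root marker, IRT1, had no read. All 8 guard cell markers had log2 fold changes below 0, with a median of -0.21, 1 member lower at an unadjusted p under 0.05 and 0 called by edgeR or DESeq2. Of all genes tested, 4.5% were higher and 3.01% lower at that p. The summed level of the guard cell markers was 130.1 to 139.7 CPM in wild type and 113 to 128 CPM in sapx tapx, ranges that did not overlap. The dividing cell markers had a median of -0.16 over 6 of 6 genes, the trichome markers -0.12 over 4 of 6 and the phloem markers 0.02 over 6 of 6, with 0 calls by edgeR or DESeq2 and 1 member of each at an unadjusted p under 0.05, lower for the first 2 lists and higher for phloem. The guard cell markers lay in the same direction as PDF1 and PEL3 of the epidermis, while 3 of the 6 dividing cell markers lay above 0 beside the lower FZR3 and 3xHMG-box2. The part of these markers in those differences was not tested, and in bulk leaves fewer cells of a type and less RNA per cell cannot be told apart.

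Genes beside the mutated loci were examined because sequence near a mutation is carried along with it. Of the 3 nearest tested genes on each side of SAPX and of TAPX, 12 in all, edgeR and DESeq2 called 0, and log2 fold changes ran from -0.55 to 0.45. AT4G08230 lies outside this window, 125 kb from SAPX. It had a log2 fold change of 0.80 ± 0.13 (edgeR quasi-likelihood adjusted p = 0.0607). In sapx tapx pgr5 compared with pgr5 it had 0.70 ± 0.12 (edgeR quasi-likelihood adjusted p = 0.0148). A part of linkage in this was not tested. AT1G77480, annotated as an aspartyl protease and the neighbour of TAPX, stood at 11.5, 13.7 and 11.5 CPM in wild type and at 8.56, 6.33 and 9.87 CPM in sapx tapx. A single gene of 12 without overlap and at an unadjusted p under 0.05 is near the shares over all genes tested, 11.5% and 7.5% (log2 fold change -0.55 ± 0.16, edgeR quasi-likelihood adjusted p = 0.449).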

How the data were processed

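RNA of 12 leaf libraries, 3 per genotype, was made into libraries with a kit that does not mark strand, per the labels' protocols. The authors deposited 1 table per library with whole-number read counts per gene and RPKM values, per the file headers. Per the submitters' processing notes, reads were placed on TAIR10; the sources used here do not give the aligner, the counting tool or the sequencing runs, so run and genotype cannot be told apart. Rows of genes numbered 28642, and RefSeq named 28009 of them by locus.

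Total exon reads went into edgeR 4.0.16 under R 4.3.3 (TMM, filterByExpr, 1 quasi-likelihood fit over 12 libraries with 1 coefficient per genotype), with Benjamini-Hochberg adjustment over 16350 genes and calls at an adjusted p under 0.05. Standard errors follow from the F statistic. The fit was tested on simulated data. Alternatives were RLE and upper-quartile scaling, no filter, DESeq2 1.42.0, the 6 libraries of a comparison alone, unique exon or total gene reads, limma 3.58.1 on log2(RPKM + 0.5) or + 0.1, a removed trend on exon length, the replicate number as a block, and leaving out each library. Libraries held 4916603 to 6828070 exon reads; floors and intervals of counts cover counting error only. Pairs of replicates differed beyond sampling noise (chi-square per degree of freedom 3.86 to 12.5). Nothing in the labels says that replicates came from separate plants, so p-values measure the spread between samples, which may be technical.

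Members and the 28 gene lists (383 entries from general knowledge) were chosen with earlier results of these data known. Named genes were SAPX, TAPX and PGR5; all called genes; the 10 next by p in each direction with at least 5 CPM; the 3 members of each list with the highest RPKM; the 8 genes with the largest spread within a genotype and at least 20 CPM; the 8 with the highest RPKM; and 3 neighbours on each side of SAPX and TAPX. Others (APX2, CDSP32, AT5G13850, HEI10, ZAT12, MYC2, CBF1, CBF2, genes at the ends of a range, those with no read and those called by DESeq2) were chosen after their values were seen.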

Additional observations from a re-analysis of the deposited data

Results flagged for a closer look

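For 3 genes the log2 fold change with sapx tapx, called its effect here, differed between the wild type and the pgr5 background. The difference itself was tested, in 1 fit of all 12 libraries with edgeR's quasi-likelihood test. Whether the genotypes differ beyond the named mutations was not tested. The difference of the log2 fold changes (effect with pgr5 minus effect without it) was 3.59 ± 0.46 for MRD1, whose level was low in all 3 sapx tapx libraries and closer to the controls in the 3 sapx tapx pgr5 libraries. It was -1.77 ± 0.22 for CML23 and -2.16 ± 0.30 for RDUF1, both higher in 3 of 3 sapx tapx libraries and lower in 3 of 3 sapx tapx pgr5 libraries than in every library of their controls. All 3 genes were named for a small p in one of the 2 effects that enter this difference.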

How the results depend on the processing

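The 6 calls of sapx tapx against wild type became 56 with DESeq2, 3 with only the 6 libraries compared and 29 with the replicate number as a block. Leaving out 1 library gave 4 to 81, the highest without wild type replicate 2. For sapx tapx pgr5 against pgr5, the 252 calls became 416 with the replicate block and 112 to 341 when 1 library was left out. Its lower counts came without pgr5 replicate 1 (127), 2 (115) or 3 (112) and without sapx tapx pgr5 replicate 1 (116) or 3 (154). For the difference between backgrounds, the 23 calls became 99 with DESeq2, 42 with limma on log2(RPKM + 0.5), 50 with the block and 10 to 61 when 1 library was left out (61 without wild type replicate 2); a fit of only the groups compared is the same fit here. The cause of these moves was not tested. Same-numbered libraries of the 2 genotypes deviated with correlations of -0.14, -0.53 and -0.02, so the numbers were not taken to pair them. The names of the deposited tables give same-numbered libraries of these genotypes the same sample number, but no label states a shared batch or day. No called value reversed its sign in the alternatives run. SAPX, TAPX and MRD1 were called in 23 of 23 alternatives. Depth limits genes under 5 CPM most, where fewer than 50% of intervals lie within 2-fold.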

Other observations

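DESeq2 called 50 genes that edgeR did not. The groups did not overlap in any of the 56 genes DESeq2 called, which a small p in the same libraries largely fixes. Of the 56, 14, SAPX and TAPX among them, were called by edgeR in sapx tapx pgr5 compared with pgr5, where 1.54% of all genes tested were called. The genes named here were picked by hand from the 50, and no group of genes was tested among them. PSAK, a photosystem I subunit, had a log2 fold change of 0.43 in edgeR's fit (edgeR quasi-likelihood adjusted p = 0.194; DESeq2 adjusted p = 0.0235), and CP12-1 and CP12-2, which bind enzymes of the Calvin cycle, had 0.51 and 0.36. CDSP32, a chloroplast thioredoxin-like protein, had 0.33 without pgr5 and 0.71 with pgr5, and the second value passed edgeR's test (edgeR quasi-likelihood adjusted p = 0.000242). GRP-3 and GRP5, glycine-rich proteins of the cell wall, had 0.62 and 0.93 without pgr5 and 0.97 and 0.95 with it, and both second values passed edgeR's test (edgeR quasi-likelihood adjusted p = 0.00241 and 0.0434). RDUF2, the close relative of RDUF1, had 2.00 without pgr5 and -0.10 with it, and CAF1a, a deadenylase, 1.66 and -0.19. MAF5, a repressor of flowering, had the lowest value of those that edgeR did not call, -3.36 (edgeR quasi-likelihood adjusted p = 0.274; DESeq2 adjusted p = 0.0243).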
